A study of Mus musculus with 12 samples.

Results

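The fibroblast growth factor (FGF) genes described here are the ligand genes Fgf2, Fgf7, Fgf10 and Fgf21, the related gene Fgf13, the receptor kinase genes Fgfr1, Fgfr2, Fgfr3 and Fgfr4, and the receptor-like gene Fgfrl1. They were chosen by gene symbol from the genes with a row in at least 1 of the 3 deposited tables, and all 10 symbols had a row, of 10289 genes with a row in any table. RNA was sequenced from C2C12 cells, a mouse skeletal muscle cell line whose myoblasts proliferate in serum-rich growth medium (GM) and fuse into myotubes after serum withdrawal. All lines carried a lentiviral construct and were selected with puromycin, so the controls were transduced and selected too. The 4 groups of 2 libraries each were GFP-overexpressing cells in GM (day 0), GFP-overexpressing cells at day 4 of differentiation (D4), and Mettl3-overexpressing and Mettl14-overexpressing cells in GM. For the Mettl14-overexpressing libraries the titles give day 0 and the time point field gives D4, and the titles were used. The authors' figure legend and the name of their comparison also place these cells in GM. The stable cells were not described as single clones.

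FGFs are secreted proteins that bind receptor tyrosine kinases at the cell surface together with heparan sulfate, and the activated receptor signals through adaptor proteins to the RAS-ERK cascade. In muscle precursors FGF signaling is known to favor proliferation and to hold back differentiation. Fgf2 encodes a mitogen widely used to keep myoblasts growing, Fgf7 and Fgf10 encode related ligands that act mainly on an epithelial splice form of the receptor encoded by Fgfr2, and Fgf21 encodes a hormone-like ligand that needs the co-receptor beta-Klotho. Fgf13 belongs to a group of FGF homologs that stay inside the cell. The protein of Fgfrl1 binds FGFs but has no kinase domain.

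Each table gives 1 mean normalized count per gene, averaged by the authors over libraries, and otherwise holds columns of the authors' own comparisons, which were not used. No value per library could therefore be shown, no group was compared with another, and no value below has an SD or a test. A row means that the gene met the authors' limit on the false discovery rate (FDR) in that comparison. The direction and size of those changes are not given here. Membership chosen on FDR is a property of the measured values and is described without a test. Of the 10 genes, 8 had a row in the table of D4 against GM, where 95.5% of all genes with any row were found. In the table of Mettl3-overexpressing cells 4 of the 10 genes had a row, against 17% of all genes with any row. In the table of Mettl14-overexpressing cells 4 had a row, against 10.7%. The 10 genes were picked from genes with a row, with earlier results of these data known. Fgf1, Fgf5, Fgf11 and Fgf14 also had rows but were not among the 10. These shares therefore depend on the choice and are no result about FGF genes in general. The genes with a row in both overexpression tables were Fgf2, Fgf7, Fgf10 and Fgfr2, and both of these tables rest on the GFP libraries in GM. Fgf2 and Fgf7 were in all 3 tables, as were 644 (6.26%) of all genes with any row. Fgf10 and Fgfr2 were absent from the D4 table, and a missing row says nothing of how a gene behaved there.

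The myogenic identity of the libraries was looked at through the same means. All 8 genes of a skeletal muscle list (Myod1, Myf5, Myog, Des, Cdh15, Ttn, Ckm and Myh3) had a row, with a median of 1258 normalized counts per kb of exon. Of the lists for other cell types, the 5 fibroblast or mesenchymal genes also had rows, with a median of 476 per kb. The collagen gene Col3a1 was at 8857 per kb, above the highest gene of the muscle list (Myh3, 6665 per kb). Ly6a was at 623, Dcn at 476, Lum at 61.6 and Pdgfra at 52.4 per kb. Of 3 adipocyte genes 1 had a row (Cd36, 44.1 per kb). None of the 3 endothelial or the 3 leukocyte genes had a row, which leaves their levels unknown. Having a row reflects the authors' limit on FDR, and the share of all tested genes with any row is not known here. The counts of marker genes with a row can thus not be called high or low and do not show cell identity. Mettl3 and Mettl14 had means of 5827 and 6250.5 normalized counts over the libraries, and these means cannot check the label of any single library.

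The 25-base windows below hold the match to GGACT nearest the stop codon in the principal transcript of 4 genes, shown as examples. Every member had such a match. Those of Fgf13, Fgfr4, Fgfrl1, Fgfr3 and Fgf2, not shown, lay nearer the stop codon than that of Fgfr2. GGACT, written GGACU in RNA, is the core of the sequence that the METTL3 and METTL14 methyltransferase recognizes when it places N6-methyladenosine (m6A) on RNA. Capitals mark the match. Each window is given in the direction of the transcript, on GRCm38 and the GENCODE M21 gene models. A match is a stretch of letters and says nothing about whether the base was methylated in these cells.

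The Fgfr1 window lies in coding sequence at chr8:25573894-25573918 on the plus strand, and its match starts 17 bases before the end of the stop codon. The Fgf7 window lies in the 3′ untranslated region (UTR) at chr2:126089607-126089631 on the plus strand, with the match 56 bases beyond the stop codon. The Fgf21 window lies in coding sequence at chr7:45614189-45614213 on the minus strand, 183 bases before the end of the stop codon. The Fgfr2 window lies in coding sequence at chr7:130177721-130177745 on the minus strand, 663 bases before that end.
Fgfr1: tgccaacagtGGACTcaaacggcgc
Fgf7: tctttccagtGGACTtttcttctct
Fgf21: tgcctcagaaGGACTccccaaacca
Fgfr2: tgaccttcaaGGACTtggtgtcctg

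The 300-base promoter windows of Fgf21, Fgf7 and Fgfrl1 are shown because these genes had the highest levels per kb among the genes with a RefSeq promoter entry. RefSeq sequences of GRCm38.p6 were found for 9 of the 10 genes, from 250 bases before to 50 bases after a transcription start, and there was no entry for Fgfr1. The Fgf21 window is chr7:45615441-45615740 on the minus strand, the Fgf7 window is chr2:126034408-126034707 on the plus strand and the Fgfrl1 window is chr5:108693979-108694278 on the plus strand. Capitals mark matches, on either strand, to the E-box CANNTG, the GC box GGGCGG, the TATA sequence TATAAA, the AP-1 sequence TGANTCA and the ATF4-type sequence TGATGNAA.
Fgf21: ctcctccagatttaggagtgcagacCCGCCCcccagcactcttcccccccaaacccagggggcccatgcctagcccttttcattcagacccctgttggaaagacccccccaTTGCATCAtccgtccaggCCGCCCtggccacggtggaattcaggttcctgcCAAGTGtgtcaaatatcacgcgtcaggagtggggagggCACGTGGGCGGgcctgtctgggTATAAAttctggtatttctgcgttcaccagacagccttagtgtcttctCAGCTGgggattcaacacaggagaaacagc
Fgf7: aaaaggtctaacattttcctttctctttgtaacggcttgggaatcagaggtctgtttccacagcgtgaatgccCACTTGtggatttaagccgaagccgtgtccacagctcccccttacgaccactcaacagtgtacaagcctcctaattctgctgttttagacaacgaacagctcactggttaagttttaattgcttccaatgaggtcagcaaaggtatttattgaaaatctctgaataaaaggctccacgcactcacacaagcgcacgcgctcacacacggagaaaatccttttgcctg
Fgfrl1: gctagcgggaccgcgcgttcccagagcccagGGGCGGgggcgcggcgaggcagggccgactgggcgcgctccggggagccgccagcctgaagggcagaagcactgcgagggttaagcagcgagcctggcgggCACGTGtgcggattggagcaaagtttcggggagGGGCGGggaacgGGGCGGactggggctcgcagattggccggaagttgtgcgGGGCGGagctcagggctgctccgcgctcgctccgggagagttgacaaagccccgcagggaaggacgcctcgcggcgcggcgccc

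The Fgf21 window held 3 E-boxes, 3 GC boxes, 1 TATA sequence and 1 ATF4-type sequence, and 1 of its E-boxes overlaps a GC box. Among all 32851 promoter windows of this length the E-box was present in 72.3%, the GC box in 35.7%, the TATA sequence in 13.6%, the AP-1 sequence in 7.81% and the ATF4-type sequence in 3.97%. The Fgf7 window held 1 E-box and none of the other letters. The Fgfrl1 window held 1 E-box and 4 GC boxes and was the richest of the printed windows in C and G, at 73.7%, whereas the Fgf21 and Fgf7 windows were at 58.0% and 45.7%. The median over all windows was 52.7%. Such matches describe letters and are not evidence that a factor binds.

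The ligand genes spanned a wide range. Fgf21 had the highest level of all 10 genes once length was taken into account. It lies on chromosome 7 (45613886 to 45615490, minus strand) and its mean was 1319.7 normalized counts over 951 exonic bases, or 1388 normalized counts per kb. This level was at or above that of 96.5% of the genes with a row. Fgf7, on chromosome 2 (126034658 to 126091185), had a mean of 687 normalized counts and a level of 212 per kb, at percentile 70.5. The level of Fgf21 was 6.56 times that of Fgf7. Against Fgfr1, Fgf21 was at 2.46 times per kb of merged exons and at 1.25 times with the longest transcript. No spread over libraries is known, so the order of Fgf21 and Fgfr1 is not certain.

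Fgf2 and Fgf10 lay close to each other and below the median of all genes with a row, which was 99.5 normalized counts per kb. Fgf2, on chromosome 3 (37348346 to 37410108), had a mean of 339 normalized counts and a level of 49.9 per kb. Fgf10, on chromosome 13 (118669791 to 118792115), had a mean of 218 normalized counts and a level of 47.4 per kb. Their ratio was 1.05, and without a spread over libraries no order between them can be given. The level of Fgf7 was 4.47 times that of Fgf10, its relative in the same FGF subfamily.

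Part of the Fgf2 value is uncertain, because 640 of its exonic bases (9.44%) are shared with Nudt6 on the opposite strand. The sources used here do not state whether counting used the strand, so reads from these bases cannot be assigned to one gene. Nudt6 itself had no row. A further 255 bases are shared with the noncoding gene Gm43439 on the same strand. For Fgf10 the overlap with an antisense gene covered 2.67% of its exonic bases.

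Fgf13, the intracellular homolog, was the lowest of the 10 genes. On the X chromosome (59062145 to 59568071, minus strand), it had a mean of 8.74 normalized counts and a level of 2.17 per kb, at percentile 3.88. A mean this low rests on few reads per library.

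Among the receptor genes Fgfr1 stood far above the others. It lies on chromosome 8 (25513654 to 25575718) and had the highest mean of the 10 genes, 5579.5 normalized counts, over 9875 exonic bases. This gave 565 normalized counts per kb, at percentile 89.7. Its level was 94.3% of the summed level per kb of the 4 receptor kinase genes.

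Fgfr3, on chromosome 5 (33721674 to 33737068), had a mean of 168 normalized counts and a level of 23.5 per kb. Fgfr2, on chromosome 7 (130162451 to 133123350, minus strand), had a mean of 64.3 normalized counts and a level of 6.23 per kb. These coordinates are the outer limits of its gene model. The RefSeq promoter window of Fgfr2 lies well inside them, at chr7:130266759-130267058. Fgfr4, on chromosome 13 (55152640 to 55168759), which encodes a receptor known from muscle regeneration, had a mean of 15.3 normalized counts and a level of 4.33 per kb. All 3 were thus below the lower quartile of the genes with a row, 27.5 per kb, and Fgfr1 was at 24.0, 90.8 and 130 times their levels in this order.

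The lengths of Fgfr1, Fgfr2 and Fgfr3 depend on the gene model. The merged exons of Fgfr2 add up to 10328 bases over 27 transcripts, whereas its longest transcript has 4429. Divided by the longest transcript, the level of Fgfr2 was 14.5 and that of Fgfr1 1107 per kb, and the ratio between them was 76.2. On that scale Fgfr1 was at 240 times the level of Fgfr4, against 130 times per kb of merged exons. In this wide gene model Fgfr2 shares 314 exonic bases with the transcriptional corepressor gene Ctbp2 on the same strand, and Ctbp2 had a row. Fgfr3 shares 13.9% of its exonic bases with an unvalidated transcript model on the opposite strand.

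Fgfrl1, the gene of the receptor without a kinase domain, ranked below Fgf21 and Fgfr1 and above the other 7 genes. It lies on chromosome 5 (108692382 to 108706924), its mean was 804 normalized counts and its level was 289 per kb, at percentile 78.2. This was 12.3 times the level of Fgfr3, and Fgfr1 was at 1.95 times the level of Fgfrl1, or 3.21 times when the longest transcript was used as the length.

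**Figure D1:**
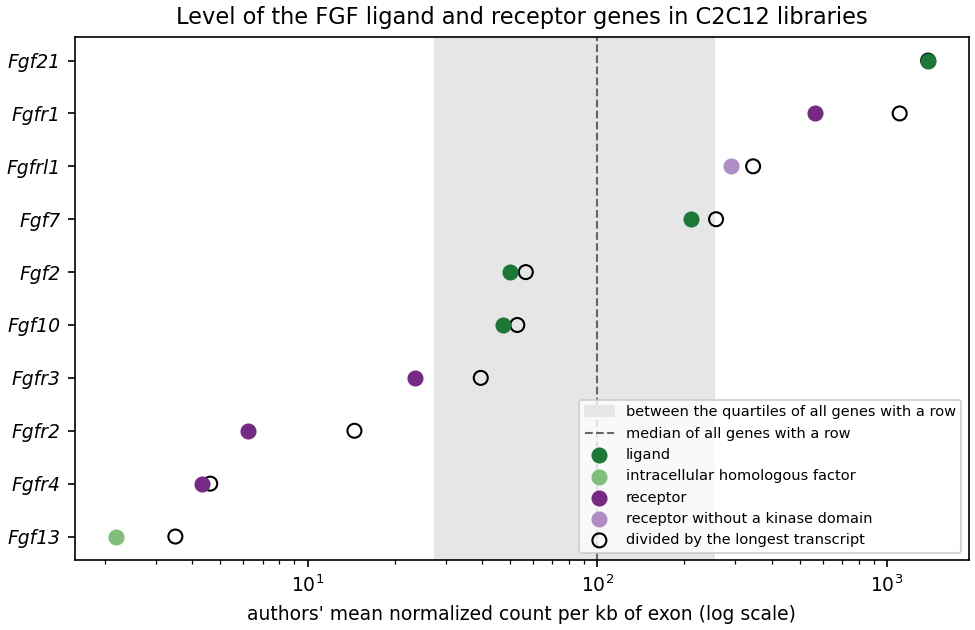
Level of each gene as the authors' mean normalized count per kb of exon, on a log axis, with 1 pooled value per gene and no error bar. Filled circles use the merged exons, colored by role, and open circles use the longest transcript. Grey marks the range between the quartiles of all genes with a row (27.5 to 253 per kb) and the dashed line their median. Fgf21 and Fgfr1 sit at the top and Fgf13 at the bottom with either length.

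Across the 10 genes the levels ran from 2.17 to 1388 normalized counts per kb, with a median of 48.6. The genes Fgf21, Fgfr1, Fgfrl1 and Fgf7 were above the median of all genes with a row, and 3 of these were above its upper quartile of 253. The order of the 10 genes was the same with the longest transcript as with the merged exons. The mean was taken over libraries of all stages, and 6 of the 8 RNA libraries in the labels are from GM. How many libraries entered the mean is not given in the sources used here. A gene expressed only at D4 and a gene expressed weakly throughout can have the same mean, and in bulk RNA fewer expressing cells and less RNA per cell cannot be told apart.

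Of 69 other genes of the FGF pathway, 35 had a row in at least 1 table, 33 in the D4 table, 9 in the Mettl3 table and 4 in the Mettl14 table, where the shares of all genes with any row were 95.5%, 17% and 10.7%. The share of all tested genes that had any row is not known here. The counts of genes with a row in each role below can thus not be called high or low. Of 17 other FGF genes 4 had a row. Fgf11, like Fgf13 an intracellular homolog, was the highest of them at 174 normalized counts per kb. Fgf5, Fgf14 and Fgf1 were at 9.70, 4.18 and 2.47 per kb, in the range of the weakest of the 10 genes. Fgf5 had its row in the Mettl14 table alone.

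The medians given for the roles cover only genes with a row. On such genes, those of proteins that carry heparan sulfate or assist the receptors had the highest median of the 5 roles, 1014 normalized counts per kb. Only 7 of 18 had a row, and the levels of the others are unknown. Gpc1, the gene of a membrane-anchored proteoglycan, was at 4134 normalized counts per kb. The syndecan genes Sdc2 and Sdc4 were at 3292 and 1014 per kb, and Hspg2, which encodes perlecan of the basement membrane, was at 1626. Klb, the gene of the beta-Klotho co-receptor that FGF21 needs, and its relative Kl had no row, so no level can be set beside that of Fgf21.

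Genes of the signaling proteins next to the receptor had rows in 10 of 17 cases, with a median of 255 normalized counts per kb. Mapk3, which encodes ERK1, was at 709 per kb. Frs2, the adaptor gene closest to the receptor, was at 227, the adaptor gene Grb2 at 401 and the phosphatase gene Ptpn11 at 437.

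Feedback inhibitors had rows in 9 of 10 cases, with a median of 128 normalized counts per kb. Spry2 was the highest at 416 and was in all 3 tables, followed by Dusp6, which encodes a phosphatase for ERK, at 211 and Spred1 at 195. Spry4 and Il17rd were at 21.5 and 20.1 per kb. Among 7 known targets of the pathway 5 had a row. Ccnd1, Myc and Egr1 were at 608, 536 and 495 per kb, Etv4 was at 234 and in all 3 tables, and Fos was at 21.4.

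**Figure D2:**
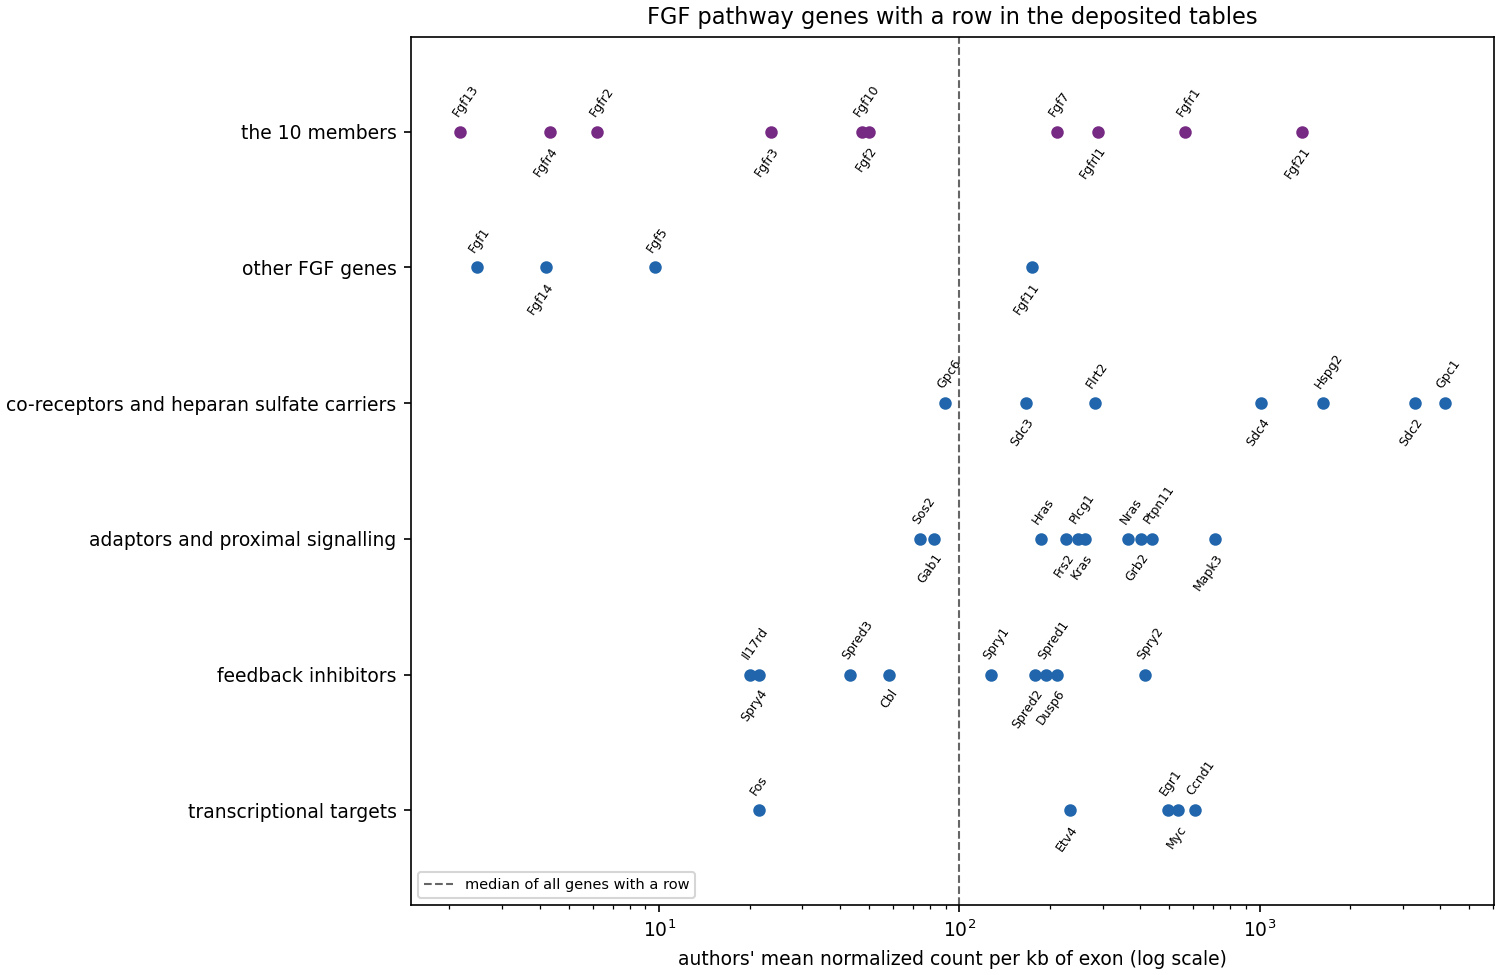
Level of the 10 genes and of the 35 other pathway genes with a row, as the authors' mean normalized count per kb of exon on a log axis, with a line of points for each role. The dashed line is the median of all genes with a row (99.5 per kb). The heparan sulfate carriers reach 4134 per kb, whereas 3 of the 4 other FGF genes lie under 10 per kb.

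The coding sequences of the receptor kinase genes are similar in size, between 2400 and 2523 bases including the stop codon, and that of Fgfrl1 has 1590 bases. In global alignments of the principal transcripts Fgfr1 and Fgfr2 were identical at 72.8% of the aligned bases. Among the kinase genes Fgfr4 was identical to Fgfr3 at 70.7%, to Fgfr1 at 67.9% and to Fgfr2 at 67.8% of the aligned bases. Fgfrl1 was identical to the kinase genes at 64.6% to 66.5% of the aligned bases. Fgf7 and Fgf10 were identical at 63.6%, which was the highest value between genes of the FGF family here, and Fgf10 and Fgf13 were identical at 57.9%. The alignments were not calibrated on unrelated genes. Coding sequences of the FGF genes were between 465 bases (Fgf2) and 738 bases (Fgf13) long.

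The untranslated regions differed more. The principal transcript of Fgf2 had 5311 bases after the stop codon, longer than in 96.9% of the 9253 coding genes with a row, and that of Fgf21 had 134 bases. The median of all these genes was 1018. In the coding sequence Fgf7 was poor in G and C at 45.6%, and Fgfrl1, Fgfr3, Fgfr4 and Fgf21 were between 58.5% and 58.7%, against a median of 53.1%.

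The 10 principal transcripts held 36 matches to GGACT, 16 in coding sequence, 12 in 3′ UTRs and 8 in 5′ UTRs. Per length the matches were densest in Fgf21, at 2.10 per kb of transcript (percentile 90.3 of the 9253 genes). That density rests on only 2 matches in a short transcript of 951 bases. Next came Fgfr1, at 1.59 per kb with 8 matches. Fgf10 was the sparsest at 0.49 per kb, with both of its matches in the 5′ UTR. The median of all genes was 1.05 per kb, and 6 of the 10 genes were below it. Only 3 matches, in Fgfr1 and Fgf7, lay within 100 bases of the end of the stop codon, and 8 in 5 genes lay within 300 bases. Of the genes found in both overexpression tables, Fgf2 was at 1.00, Fgfr2 at 0.90, Fgf7 at 0.75 and Fgf10 at 0.49 per kb, all below the median. Fgf13 at 0.80 and Fgfr4 at 0.90 per kb, found in neither of these tables, were below it too. Whether match density goes with being in these tables was not tested. Only GGACT was counted, and other forms of the wider m6A motif RRACH that the authors found were not. In RRACH, R is A or G and H is A, C or U.

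**Figure D3:**
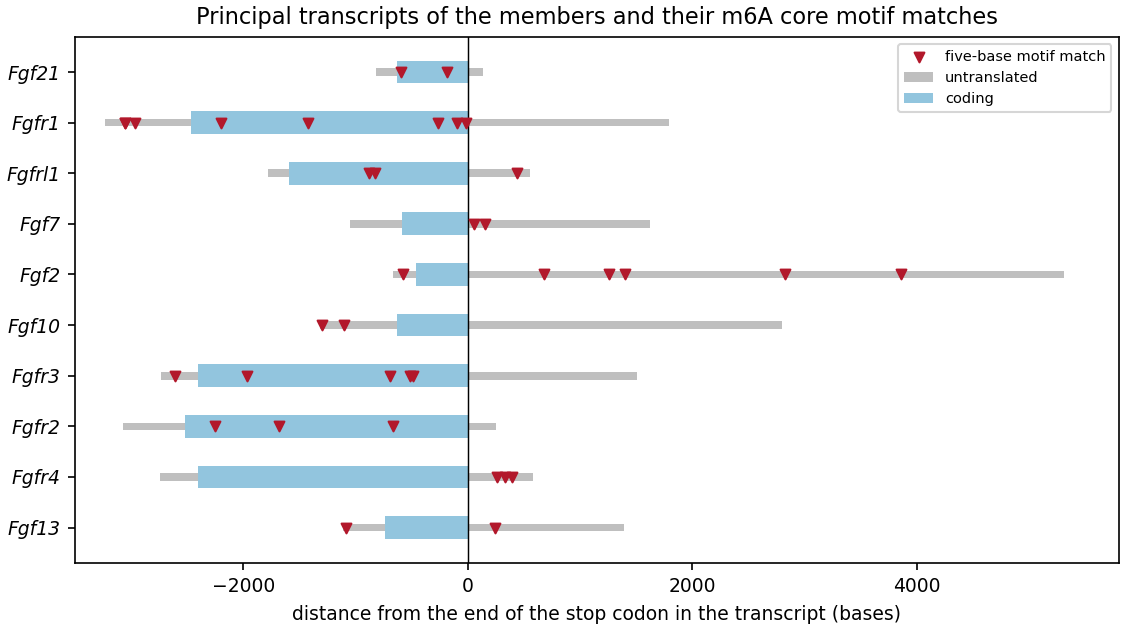
Principal transcript of each gene drawn to scale, with distance from the end of the stop codon in bases on the axis, coding sequence as wide bars, untranslated sequence as thin bars and triangles for the 36 matches. Genes are in the order of their level per kb. Fgf10 has no match after its start codon, and the 5 late matches of Fgf2 are spread along its long 3′ UTR.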

How the data were processed

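RNA of C2C12 cells was measured by RNA-seq in 4 groups of 2 libraries, grouped by title. The 4 MeRIP-seq libraries were not analysed here. Reads were mapped by the authors to mouse GRCm38 (hisat2), assigned to genes of the Ensembl annotation (featureCounts), and normalized and compared by the authors with DESeq2. Program versions are not given in the sources used here. The 3 deposited tables list genes at FDR of at most 0.05 in D4 against GM, and in Mettl3- and Mettl14-overexpressing against GFP-overexpressing cells. The only value used is the deposited mean normalized count, a signal that the authors obtained by scaling counts with size factors and averaging libraries. The remaining numeric columns hold the authors' fold changes, standard errors, statistics and p-values. As results of the authors' comparisons they were neither used nor printed. Between tables the mean of a gene differed by at most a relative 4.77e-10. The depth per library is not in the tables, so no counting interval was given.

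Means were divided by merged exon length in GENCODE M21 (found for 10282 of 10289 identifiers), a different annotation release from that of the authors. Percentiles are the percentage of genes with a row at or below a value. Principal transcripts were ranked by APPRIS tag and then coding length. Coding sequences were aligned globally with Biopython 1.88 (match 2, mismatch -1, gap opening -5, extension -0.5). Lengths, motif counts and percentiles were checked on simulated data. Python 3.11.15, pandas 2.3.3, NumPy 2.4.6 and matplotlib 3.10.9 were used. The members and lists were chosen with earlier results of these data known. All 10 members were named. Of the pathway list at most 5 genes per role were named, taken from the top by level per kb. Added to these were genes named after their values were seen (Frs2, Spry4, Il17rd, Klb, Kl). Marker genes were named from the fixed marker lists, and Nudt6, Gm43439 and Ctbp2 for their overlap with members. Of the pathway list, 1 item is not reported here and was left out of its counts. The alternatives were another length, another background and another table for the mean.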

Additional observations from a re-analysis of the deposited data

How the results depend on the processing

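The number of the 10 genes above the median of the genes with a row was 4. It was also 4 with the longest transcript as the length. With a background of protein-coding genes only, of genes with at least 10 normalized counts, or of each table alone, it was again 4. In these backgrounds only the median changed, and all 10 genes stayed in the count. None of the 10 lay between Fgf2 at 49.9 and Fgf7 at 212 per kb. Any background median in that gap gives 4, so the repeated 4 is a weak check. The median level of the 10 genes was 48.6 normalized counts per kb of merged exons, 54.8 per kb of the longest transcript, and 278 normalized counts when not divided by length. The latter is a value on another scale. The means of Fgf2, Fgf7, Fgf10 and Fgfr2 were the same in each table that listed them. This held for every gene shared between tables and is no check of the levels. The D4 table holds 95.5% of the genes with a row, so that background is nearly the full one. No paired analysis was possible because the tables hold no value per library, and for the same reason no library could be left out. The tables hold only genes past the authors' limit, so the percentiles place the 10 genes among such genes and not among all expressed genes.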
